A study of Homo sapiens with 6 samples.

Results

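The miR-191 and miR-425 cluster consists of 2 hairpins, MIR191 and MIR425, that lie in the same intron of DALRD3. The rows of the count table that carry the names of their mature arms were taken, hsa-miR-191-5p, hsa-miR-191-3p, hsa-miR-425-5p and hsa-miR-425-3p. These are 4 of the 2588 miR names listed, of which 1205 had at least 1 read and 360 passed the filter on low counts. All 4 passed that filter. The small RNA libraries came from HEK293T, an established human embryonic kidney cell line. 3 libraries were made after siPOOLs, mixtures of many siRNAs, against the ribosomal protein RPL24 (RPL24 KD), and 3 after non-targeting siPOOLs (NC). Each pool was given at 50 nM, and harvest followed 72 h later, a time that a label writes as day 72. The protocol in the labels adds a miR-608 plasmid to both groups, given 48 h after the siPOOLs and 24 h before harvest. The count table lists hsa-miR-608 at 0 in all 6 libraries, so it is unclear whether the sequenced cells received that plasmid. No mRNA was measured in these libraries, so neither the depletion of RPL24 nor the level of the host gene DALRD3 was checked here. The paper reports reduced RPL24 mRNA in HEK293T cells given siPOOLs against RPL24, and calls the sequenced knockdown a separate experiment.

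A miR hairpin is cut from its primary transcript in the nucleus by DROSHA with DGCR8, helped by the helicases DDX5 and DDX17, and then from its loop by Dicer in the cytoplasm. One arm of the resulting duplex is usually kept in the silencing complex as the guide and the other, the passenger, is mostly lost, so that the counts of both arms depend on transcription, on both cuts and on the choice of the arm. Hairpins in one intron share a primary transcript, and their mature miRs can still differ in level through each of the later steps. miR-191-5p and miR-425-5p are found in many tissues and tumours, and both have been used as endogenous controls when miRs are measured by RT-qPCR. The host gene DALRD3 encodes a protein with an anticodon-binding domain that takes part in tRNA methylation.

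In GENCODE 29 on GRCh38, MIR191 (ENSG00000207605.3) lies on the minus strand of chromosome 3 from 49020618 to 49020709 and MIR425 (ENSG00000199032.1) on the same strand from 49020148 to 49020234. In the direction of transcription MIR191 comes first, and 383 bases separate the hairpins. DALRD3 (ENSG00000178149.16) runs on the minus strand from 49015488 to 49022293. Both hairpins lie in intron 1 of the same 4 of its 15 annotated transcripts, and the other 11 do not extend across them. That intron is from 2292 to 3689 bases long, depending on the transcript. NDUFAF3, which encodes an assembly factor of respiratory complex I, runs on the opposite strand, and MIR191 also falls within intron 1 of 1 of its 6 annotated transcripts.

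The mature sequences are shown because they define what was counted. RefSeq (GRCh38.p14) gave a mature sequence for 3 of the 4 members, with the seed, bases 2 to 8, in capitals. The coordinates on chromosome 3, minus strand, are chr3:49020672-49020694 for miR-191-5p, chr3:49020631-49020652 for miR-191-3p and chr3:49020159-49020180 for miR-425-3p. In RefSeq's MIR191 hairpin, printed last, the capitals mark the 5p arm and then the 3p arm.
hsa-miR-191-5p: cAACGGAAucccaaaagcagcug
hsa-miR-191-3p: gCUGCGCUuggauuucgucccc
hsa-miR-425-3p: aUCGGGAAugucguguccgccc
MIR191 hairpin: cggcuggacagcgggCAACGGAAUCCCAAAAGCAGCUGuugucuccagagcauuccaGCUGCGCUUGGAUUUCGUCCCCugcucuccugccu

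These 3 arms have 3 different seeds, and 0 other human mature miRs in that table share any of them. The nearest other mature sequence was 9 edits away from miR-191-5p (hsa-miR-1203), 8 from miR-191-3p (hsa-miR-4312) and 9 from miR-425-3p (hsa-miR-1257). Counts of these 3 miRs are thus not of the kind that a near-identical paralog would share. The 2 hairpins are 92 and 87 nt long, with a GC content of 59.8% for MIR191 and 57.5% for MIR425, against a median of 52.1% over the 1560 hairpins of the table. RNAfold gave a minimum free energy of -46.8 kcal/mol for MIR191, with 66 of its bases paired, and of -34.5 kcal/mol for MIR425, with 58 paired. The motif UGUG, searched on the strand of the RNA anywhere in the hairpin and known as a processing motif when it lies in the loop, was in neither hairpin and in 44.4% of all hairpins.

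The libraries held from 398721 to 611745 counts, in overlapping ranges for the groups, and 3 counts, taken as the floor, were from 4.90 to 7.52 CPM by library total. Reads are not independent molecules, so such floors, like the intervals of shares below, reflect only the error of counting. Levels are given as normalised read counts, in CPM after TMM scaling. The count table and the labels share numbers 1 and 2 in each group. The third column of each group bears the number 4, which no label has, and is called the unnumbered library. Nothing states that the libraries of a group came from separate cultures, so p-values measure the spread between these libraries, which may be technical. As a check of the cell line, the 4 miRs of the HOX clusters summed to between 97559 and 101476 CPM by library total, without TMM. Of these, 1 of the 4 (miR-196b-5p) was called higher after RPL24 KD, where 5.00% of all tested miRs were called. An unadjusted p under 0.05 by edgeR was found for 3 of the 4, beside 23.6% of all tested miRs. Of 9 miRs typical of liver, muscle, blood or brain, 8 had at most 8 counts in a library, miR-206 and miR-223-3p being at 0 throughout, while the muscle miR-1-3p had from 104 to 203. Those 9 summed to between 245 and 271 CPM, also by library total, after RPL24 KD and to between 347 and 396 CPM in NC. Most of that sum was miR-1-3p, whose log2 fold change was -0.40 (adjusted p = 0.0557, edgeR). The part of this in the results was not tested.

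The 4 mature miRs of the cluster were present at very unequal levels, in the same order in each library. A read covers a whole mature miR, so no length scaling was applied, while differences in how well each miR ligates were not measured here. miR-191-5p ranked number 25 by mean level, with 8931 CPM over the 6 libraries, and miR-425-5p ranked number 79 with 990.1 CPM. miR-425-3p followed at number 219 with 101.7 CPM and miR-191-3p at number 302 with 34.3 CPM. The ranges over the 6 libraries of neighbours in this order did not overlap. Together the 4 arms took between 0.930% and 1.152% of all counts of a library. miR-191-5p made up from 88.1% to 89.3% of those counts and miR-425-5p from 9.15% to 10.6%.

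After RPL24 KD none of the 4 was differentially expressed (DE). The mean of each was lower in RPL24 KD than in NC, the groups overlapped in all 4, and edgeR's quasi-likelihood test with Benjamini-Hochberg adjustment over the 360 tested miRs called 0 of 4 at an adjusted p under 0.05, with 0 of 4 at an unadjusted p under 0.05, which 23.6% of the tested miRs had. DESeq2 and limma also called 0 of 4. Across all tested miRs 18 were DE, which is 5.00%, 12 higher and 6 lower. With library totals in place of TMM, which moved the median of all to -0.058, the split was 10 higher and 18 lower. The groups did not overlap, with RPL24 KD lower, in 12.8% of tested miRs and, with RPL24 KD higher, in 14.7%. The median log2 fold change of the 4 members was -0.12, beside -0.0084 over all tested miRs, of which 52.8% had a log2 fold change below 0.

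The guide arm of MIR191, miR-191-5p, had 8799, 8419 and 8545 CPM in RPL24 KD libraries 1, 2 and unnumbered. In NC it had 9031, 8784 and 10010 CPM in libraries 1, 2 and unnumbered. The unnumbered NC library was the highest of the 6. NC library 2 lay slightly below RPL24 KD library 1, so after TMM the groups overlapped by one pair. As plain shares of library totals the groups did not overlap. How many of all tested miRs lack overlap on that scale was not counted. Library totals also moved the median log2 fold change of all tested miRs to -0.058. The highest RPL24 KD share was then 0.862%, in library 1, below the lowest NC share of 0.881%, in library 2. The means were 9275 ± 648 CPM (SD, n = 3) in NC and 8588 ± 194 (SD, n = 3) after the knockdown. The log2 fold change was -0.11 (SE 0.0635, adjusted p = 0.331, edgeR), with a 95% interval from -0.25 to 0.025, which is -15.8% to 1.73% on the linear scale. The libraries held between 3411 and 5280 counts of it. Without the unnumbered NC library the log2 fold change was -0.066 (adjusted p = 0.513, edgeR), and with library totals in place of TMM it was -0.16 (adjusted p = 0.154, edgeR).

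The guide arm of MIR425, miR-425-5p, had 949.1, 921.8 and 1027 CPM in RPL24 KD libraries 1, 2 and unnumbered, and 974.3, 1042 and 1026 CPM in the NC libraries in the same order. The unnumbered RPL24 KD library lay above 2 of the NC libraries, and the other RPL24 KD libraries lay below all 3. The means of 966 ± 54.7 CPM (SD, n = 3) and 1014 ± 35.5 (SD, n = 3) gave a log2 fold change of -0.072 (SE 0.0826, adjusted p = 0.664, edgeR). The 95% interval was from -0.25 to 0.10, or -15.9% to 7.54%. The log2 fold change was -0.039 without RPL24 KD library 2 and -0.12 without the unnumbered RPL24 KD library.

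**Figure D1:**
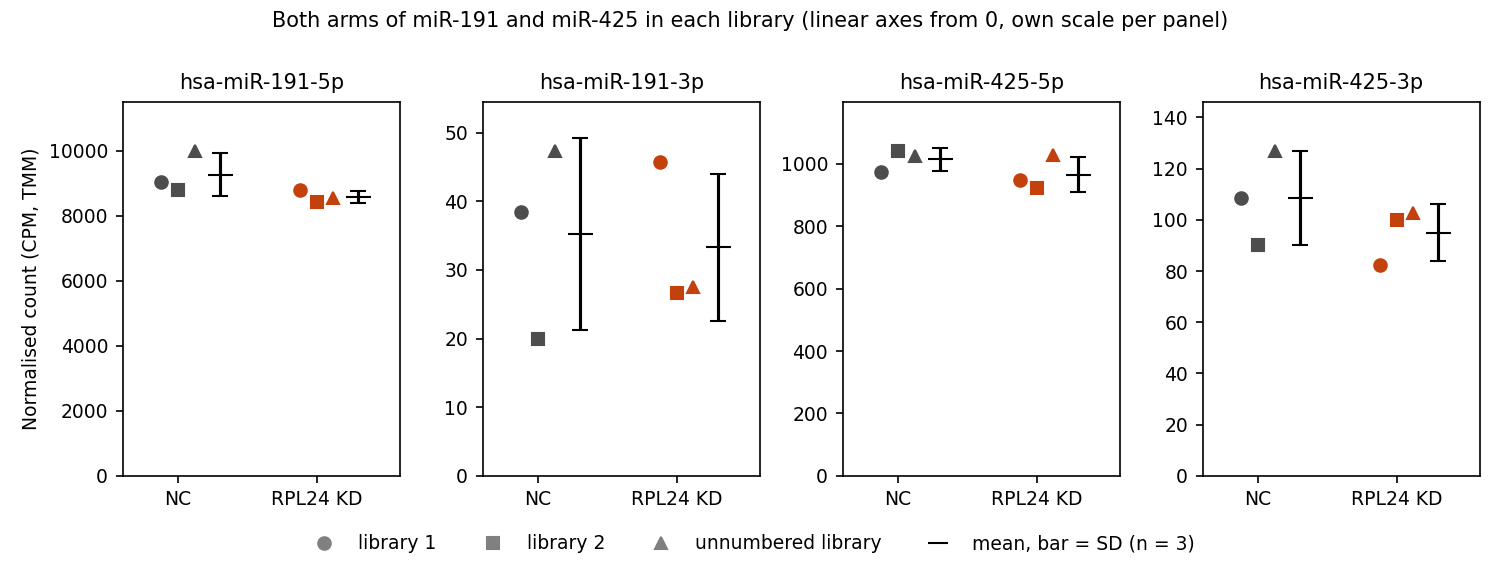
Normalised read count (CPM after TMM, linear axes from 0) of the 4 mature miRs in the 3 NC and 3 RPL24 KD libraries, 1 panel per miR with its own scale; the symbol gives the library and the bar beside the points the mean with its SD. On this scale the groups overlap in each panel. The unnumbered NC library is the highest of the 6 for miR-191-5p, miR-191-3p and miR-425-3p.

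The passenger arms were counted far less often. miR-425-3p had 82.3, 99.8 and 102.7 CPM in RPL24 KD libraries 1, 2 and unnumbered, and 108.5, 90.0 and 127.0 CPM in the NC libraries in that order. Only NC library 2 fell within the range of the RPL24 KD libraries. The log2 fold change of miR-425-3p was -0.22 (SE 0.176, adjusted p = 0.521, edgeR), with a 95% interval from -0.60 to 0.16. It was -0.11 without the unnumbered NC library, -0.12 without RPL24 KD library 1 and -0.31 without NC library 2. The libraries held between 36 and 67 counts of it, and the interval was wider than for the guide arms.

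miR-191-3p had 25, 16 and 11 counts in RPL24 KD libraries 1, 2 and unnumbered, and 22, 8 and 25 in the NC libraries in that order. These are 45.7, 26.6 and 27.6 CPM against 38.5, 19.998 and 47.4 CPM, so that the lowest and the highest of the 6 were both NC libraries. Its log2 fold change of -0.12 (SE 0.332, adjusted p = 0.875, edgeR) had a 95% interval from -0.84 to 0.59. The interval leaves changes within those bounds in either direction unresolved, and the sign of the log2 fold change turned to 0.11 without the unnumbered NC library and to 0.052 without RPL24 KD library 2.

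**Figure D2:**
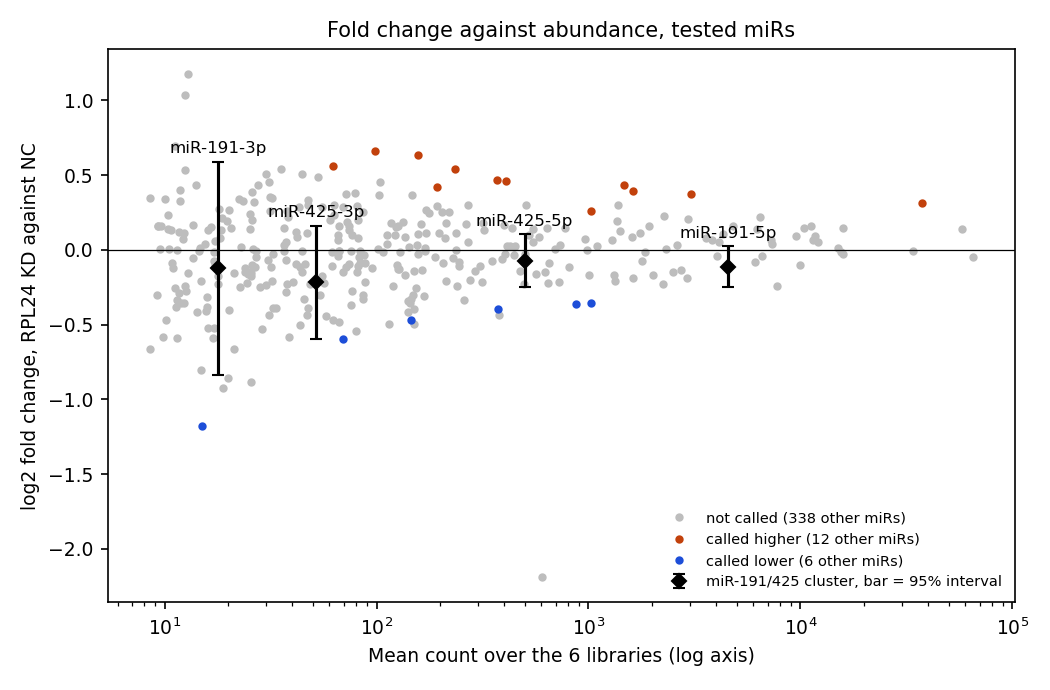
Change (log2) between RPL24 KD and NC for the 360 tested miRs, against their mean count on a log axis; black diamonds are the 4 miRs of the cluster with 95% intervals, and coloured points the 12 miRs called higher and 6 called lower by edgeR. The intervals of the 4 members include 0 and widen from miR-191-5p and miR-425-5p to the rarer miR-191-3p.

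The spread between libraries could be set against counting error for each member. For miR-191-5p the coefficient of variation was 2.26% among RPL24 KD libraries and 6.99% among NC libraries, where counting alone gives 1.503% and 1.47%. The chi-square per degree of freedom against equal levels was 2.46 in RPL24 KD and 22.2 in NC, so the NC libraries differed in miR-191-5p by far more than counting error. For miR-425-5p the same quantity was 1.43 in RPL24 KD and 0.632 in NC, and for miR-425-3p 0.665 and 1.43. These are near 1, the value that counting error alone gives on average, while for miR-191-3p it was 1.85 and 2.37. With 3 libraries per group this quantity varies widely around 1, so the miR-191-3p values do not show a spread above counting error.

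Steadiness over the 6 libraries, whatever their group, can be described by the SD of log2 CPM. It was 0.0718 for miR-425-5p, number 19 from the lowest of the 360 tested miRs, and 0.0890 for miR-191-5p, number 35, against a median of 0.209. miR-425-3p (0.216) and miR-191-3p (0.488) were at number 189 and number 327. Low counts raise this SD, so it orders miRs of unlike abundance only roughly.

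Both guide arms have served as endogenous controls, and 11 other miRs in common use for that purpose were read beside them. Of these 11, 0 were DE by edgeR, DESeq2 or limma, and 2 had an unadjusted p under 0.05 by each of the 3, beside 5.00% and 23.6% of all tested miRs by edgeR. Their median log2 fold change was 0.068, and 2 of 11 were below 0. The 3 with the smallest p-values follow. In NC, miR-103a-3p stood at 16619 ± 1821 CPM (SD, n = 3), and after the knockdown at 14055 ± 218 (SD, n = 3), which edgeR put at -0.24 on the log2 scale (adjusted p = 0.0570). let-7a-5p, a member of the tumour-suppressing let-7 family, differed by 0.22 on that scale (adjusted p = 0.0729 by edgeR), and miR-423-3p by 0.094 (adjusted p = 0.315 by edgeR). The paper's own DESeq2 analysis lists miR-103a-3p as decreased and let-7a-5p as increased after RPL24 KD. By RT-qPCR the paper reports miR-103a-3p as decreased, and let-7a-5p is not among the miRs it names as changed. In these libraries miR-484 had the lowest SD of log2 CPM of the 11, 0.0471, and 9 of the 11 had one above that of miR-425-5p.

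The ratio of the arms of one hairpin within a library is free of library scaling. In miR-191 the 3p arm took 0.517%, 0.315% and 0.321% of the reads of both arms in RPL24 KD libraries 1, 2 and unnumbered, and 0.424%, 0.227% and 0.471% in the NC libraries in that order. The exact (Clopper-Pearson) 95% intervals of these shares reached from 0.0981% to 0.762% and all overlapped. In miR-425 the 3p share was 7.98%, 9.77% and 9.09% after RPL24 KD and 10.0%, 7.95% and 11.02% in NC, with intervals between 5.63% and 13.8%. Within a library the 3p share of miR-425 was from 15.4 to 35.0 times that of miR-191.

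The mean log2 ratio of 5p to 3p counts, with 0.5 added to each, for miR-191 was 8.08 ± 0.538 (SD, n = 3) in NC and 8.01 ± 0.391 (SD, n = 3) after the knockdown. The difference of -0.065 was smaller than the spread between libraries (p = 0.9, two-sided exact permutation test, adjusted p = 0.9 over 4 values). For miR-425 the ratio was 3.34 ± 0.161 (SD, n = 3) against 3.23 ± 0.263 (SD, n = 3), a difference of 0.11 (p = 0.6, exact permutation test, adjusted p = 0.8). That difference was 0.0021 without the unnumbered NC library, 0.026 without RPL24 KD library 1, 0.18 without RPL24 KD library 2 and 0.26 without NC library 2. The smallest p that 3 libraries against 3 can give is 0.1, so these tests could not pass the threshold whatever the values.

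The balance of the hairpins was followed by the log2 ratio of miR-425-5p to miR-191-5p counts. It was -3.19 ± 0.108 (SD, n = 3) in NC and -3.15 ± 0.0849 (SD, n = 3) after the knockdown, a difference of 0.038 (p = 0.6, exact permutation test, adjusted p = 0.8). Per library there were between 0.103 and 0.1203 reads of miR-425-5p for each read of miR-191-5p. The lowest of these ratios was in the unnumbered NC library and the highest in the unnumbered RPL24 KD library, and the groups overlapped.

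The summed level of the 4 members was the only one of these single values whose groups did not overlap. It was 9876, 9467 and 9702 CPM in RPL24 KD libraries 1, 2 and unnumbered, and 10152, 9937 and 11210 CPM in the NC libraries in that order. The means of 9682 ± 205 (SD, n = 3) and 10433 ± 681 (SD, n = 3) CPM differed by -0.11 on the log2 scale (p = 0.1, exact permutation test, the smallest possible, adjusted p = 0.4). As miR-191-5p makes up most of the sum, this is not independent of its own comparison. Without the unnumbered NC library the difference was -0.053. Taken singly, 12.8% of tested miRs had groups without overlap with RPL24 KD lower, and 14.7% with RPL24 KD higher.

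The dominance of the guide arm was compared with that of the 183 hairpins that had both arm names listed and at least 100 counts in all. Over the 6 libraries the 5p arm took 99.6% of the reads of miR-191, number 44 of 183, and 90.6% of the reads of miR-425, number 136. The median share of the more abundant arm was 98.0%, and in 104 of the 183 that arm was the 5p one. Hairpins of other introns also differed among themselves. In the MCM7 intron the more abundant arm took 99.0% in miR-93, 98.7% in miR-25 and 82.0% in miR-106b, and miR-15b of the SMC4 intron had 63.1%.

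**Figure D3:**
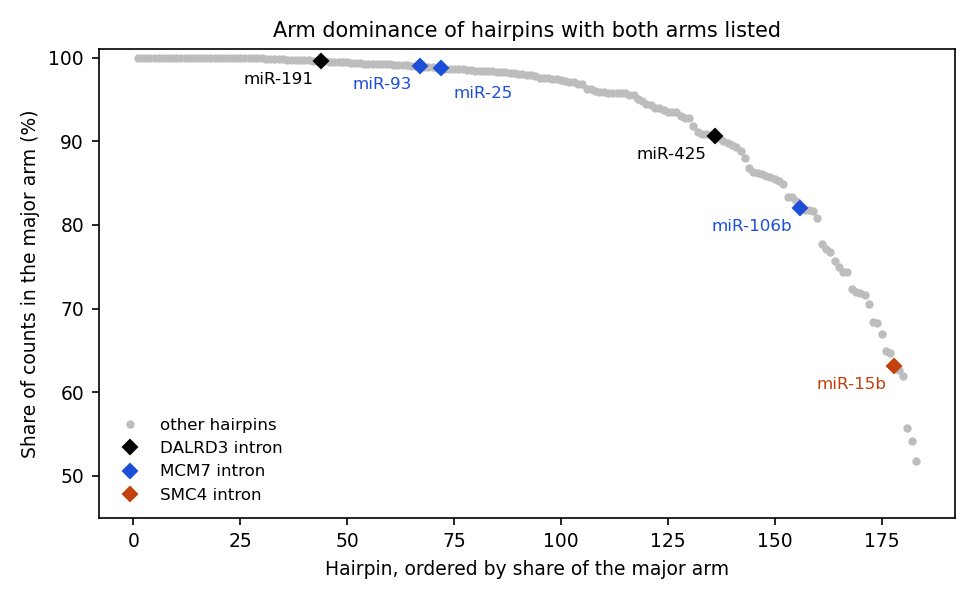
Share of the reads of a hairpin name taken by its more abundant arm (in %, counts summed over the 6 libraries), for 183 hairpin names in descending order; black diamonds are the DALRD3 intron, blue the MCM7 intron and orange the SMC4 intron. miR-191 stands at 99.6% and miR-425 at 90.6%.

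The clusters in introns of MCM7, a replication helicase subunit, and SMC4, a condensin subunit, were read in the same fit as other examples of hairpins within a protein-coding host. Of their 10 arms 1 was DE, beside 5.00% of all tested miRs, and the median log2 fold change was 0.017, with 5 of 10 below 0, beside 52.8% of all tested. The DE arm was miR-25-5p, the passenger of its hairpin, at 241 ± 16.2 CPM (SD, n = 3) in NC and 375 ± 23.4 (SD, n = 3) after the knockdown, which is 0.64 on the log2 scale (adjusted p = 0.00702 by edgeR). The next smallest p-values were those of miR-15b-5p, at -0.21 (adjusted p = 0.409 by edgeR), and miR-16-5p, at 0.14 (adjusted p = 0.426 by edgeR). miR-16-5p also comes from a second locus outside SMC4.

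The miRs whose profile over the 6 libraries was nearest to that of each guide arm were found among the other 165 tested miRs whose mean count reached 100, by the root mean square difference of log2 CPM after each miR's own mean was taken off. All libraries share their scaling in this measure, and steady miRs are near each other by construction. For miR-191-5p the nearest was miR-27b-3p at 0.0209, of similar level, at 9369 ± 807 CPM (SD, n = 3) in NC and 8621 ± 177 (SD, n = 3) after the knockdown. Then came miR-708-5p at 0.0471 and miR-140-3p at 0.0568. For miR-425-5p the nearest were miR-374a-5p at 0.0385, miR-148b-3p at 0.0423 and miR-106b-3p at 0.0495. miR-425-5p itself was number 17 in order of nearness to miR-191-5p, at 0.0812, and miR-191-5p number 19 in order of nearness to miR-425-5p.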

How the data were processed

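Small RNA sequencing gave 6 libraries, 3 of RPL24 KD and 3 of NC. Per the paper's methods, the authors trimmed the reads with Flexbar and aligned them with miRExpress to miRBase, and the deposited values are raw read counts per mature miR and library; how multiply matching reads were counted is not given in the sources used here. FastQC 0.11.9 and DESeq2 are named in the submitters' processing notes. Groups follow the labels, and 0 columns were left out.

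The whole table was fitted with edgeR 4.0.16 (quasi-likelihood test, legacy mode off, group only) in R 4.3.3, after TMM and filterByExpr (minimum count 10), with Benjamini-Hochberg adjustment and a threshold of 0.05. SEs are those implied by F. DESeq2 1.42.0 and limma 3.58.1 were alternatives. Single values were compared by exact permutation tests over libraries (SciPy 1.17.1). Structures came from ViennaRNA 2.7.2 and sequences from RefSeq, which matched 2281 of the 2588 names. The edgeR, DESeq2 and limma fits were run on counts simulated with no change or with changes far larger than those of the members. That check does not cover the power for small changes. The permutation test was checked on made-up values with separated groups. Members, lists and the rule for names (members, the 3 smallest p-values of each list, the 3 nearest profiles) were chosen with earlier results of these data known.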

Additional observations from a re-analysis of the deposited data

How the results depend on the processing

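The 4 members gave 66 values under the alternatives, of which 63 kept the sign, 3 reversed (all of miR-191-3p) and 0 were called. The log2 fold change of miR-191-5p stayed between -0.16 and -0.061, with adjusted p between 0.141 and 0.687. It had an unadjusted p under 0.05 with library totals, with miRs limited to a mean count of 100, which leaves out both 3p arms, and without NC library 2. DESeq2's default filtering gave miR-191-3p no adjusted p. The replicate block was fitted on the 4 numbered libraries only. miR-191-3p, at -0.12, was 0.28 with the replicate block and, leaving out one library, between -0.43 and 0.11. The arm ratio difference of miR-191, -0.065, ranged from -0.26 to 0.24 without one library and was -0.36 with the replicate block, and that of miR-425, 0.11, ranged from 0.0021 to 0.26 and was 0.018 with the block. miR-425-5p, at -0.072, ranged from -0.12 to -0.039 without one library and was -0.12 with the block, and miR-425-3p, at -0.22, ranged from -0.31 to -0.11 and was -0.15. The difference between the guide arms, 0.038, was -0.058 within the numbered pairs (replicate block) and reached from -0.011 to 0.096 when one library was left out.

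The 18 DE miRs became 28 with library totals, 31 without a filter and 34 with robust edgeR. With the replicate block they became 57, in a fit on the 4 numbered libraries only, so the libraries changed as well. Over edgeR fits that left out one library the count was 0 to 36. The count of 0 was without RPL24 KD library 1, with 56 at an unadjusted p under 0.05. It was 8 without RPL24 KD library 2 and 36 without the unnumbered NC library. The 12 higher became 29 with the block and 0 to 16 over those fits. The 6 lower became 18 with library totals, 16 unfiltered, 17 among miRs whose mean count reached 100, 16 with robust edgeR, 28 with the block and 0 to 20 over those fits. Of settings added after seeing the data, legacy edgeR gave 10 lower. The crossed pairing, also on the 4 numbered libraries only, gave 36 DE miRs, 13 higher and 23 lower. The cause was not tested. Deviations of same-numbered libraries correlated at -0.14 and 0.12 over 360 miRs. Each deviation is taken from a group mean that includes the unnumbered library, so 2 such pairs cannot show whether the numbers pair the libraries.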
